A study of Mus musculus with 12 samples.

Results

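This account covers 10 genes of the mouse retina that encode glial intermediate filaments, S100 proteins and proteins that work beside them: Gfap, Vim, Nes, S100a6, S100a10, S100a11, S100b, Anxa2, Lgals1 and Cd44. They were taken by symbol from a count table of 35976 genes, of which 24484 had a read in any library. The list was chosen by name with earlier results of these libraries in view, above all the comparison of OIR with normoxia in the libraries labelled WT. Values of the 10 genes in that comparison are therefore given as a description, with calls at an adjusted p under 0.05 but no p-value printed. Results of the libraries labelled Casp1 KO were known too, so p-values of the 10 genes there are not independent evidence. The other gene lists were also drawn up with results known, so their p-values are not independent evidence. The question asked of the design is how these genes stood in the ischemic retina and whether that differed between the genotype labels.

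The data are 12 libraries of retinal mRNA in 4 groups of 3. The WT normoxia and WT OIR groups came from C57BL/6 mice, and the Casp1 KO normoxia and Casp1 KO OIR groups from Caspase1 knockout mice. In oxygen-induced retinopathy (OIR), pups are kept in high oxygen, which makes young retinal vessels regress, and then return to room air, where the nonperfused retina becomes hypoxic. The C57BL/6 pups of the OIR group were in 75% oxygen from postnatal day 7 to 12 and then in room air for 3 days, and their retinas and those of normoxic pups were taken at day 15. The age and oxygen level of the knockout pups, the deleted part of the gene and the number of animals behind each library are not given in the sources used here. Pups of both sexes were used in the study, and the sex behind each library is not given in those sources. Nothing in those sources says that the 3 libraries of a group came from separate animals, so p-values measure only the spread between these libraries, which may be technical.

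Total counts ran from 3391203 to 5657873 reads in 11 libraries and reached 22815830 in WT normoxia replicate 2. WT OIR replicate 3 stood apart from its group, with a chi-square divided by its degrees of freedom of 15.2 and 14.2 against replicates 1 and 2, and 5.41 between those. The pairs in the other 3 groups ran from 3.49 to 9.46. Reads assigned to Casp1 went against the genotype labels, with 7 among the 48035066 reads of the 6 libraries labelled WT and 126 among the 26985676 reads of the 6 libraries labelled Casp1 KO. The libraries read the 3′ end of each transcript, which may lie outside a deleted part. Whether this or an exchange of the labels lies behind the Casp1 reads was not tested. The genotypes are given below as labelled, and an exchange would turn the sign of every difference between the labels.

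Muller glia, which span the whole retina, and astrocytes, which line its inner surface along the vessels, are the macroglia of this tissue. Their cytoskeleton is built from intermediate filament proteins. GFAP is the classic marker of an injured or stressed glial cell: astrocytes make it at rest, whereas Muller glia make little until the retina is damaged. Vimentin is present in resting Muller glia, and nestin marks neural progenitors and also appears in reactive glia and in some vascular cells. S100 proteins are small calcium-binding proteins. S100A10 forms a complex with annexin A2 at the membrane, galectin-1 binds sugar chains on cell surfaces, and CD44 is the cell-surface receptor for hyaluronan.

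In both genotype labels the retina in OIR held more Gfap, Vim, S100a6, S100a11 and Anxa2 mRNA than the retina in normoxia. Each of these 5 genes was higher in all 3 OIR libraries than in all 3 normoxia libraries of the same label, as were 11.1% of all genes tested in the libraries labelled WT and 12.6% in those labelled Casp1 KO. S100a10, the partner of annexin A2, and Lgals1 did not separate in either label. S100b, an S100 gene of resting astrocytes and Muller glia, was lower in the OIR libraries labelled Casp1 KO. Nes was higher in OIR without overlap in the libraries labelled WT and overlapped in those labelled Casp1 KO. In bulk retina, more transcript in each cell and more cells of a type cannot be told apart.

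The sequences around the start of 4 genes that were higher in OIR are shown, 3 because they held a match to a motif searched and S100a6 because it held none. Of the 10 genes, 8 had a promoter window in RefSeq's annotation of GRCm38.p6, from 250 bases before the start to 50 after it. Each window was searched on both strands for 2 motifs, chosen because AP-1 and STAT3 are transcription factors known for their part in glial reactivity. The AP-1 motif was written TGANTCA and the STAT motif TTCNNNGAA, with N for any base, and they do not overlap in these windows. Capitals mark a match in the 160 bases printed here, which run from 150 bases before the start to 10 after it, 5′ to 3′ on the strand of the gene. Gfap lies at chr11:102897191-102897350 on the minus strand, S100a11 at chr3:93520346-93520505, Anxa2 at chr9:69453533-69453692 and S100a6 at chr3:90612744-90612903, the last 3 on the plus strand.
Gfap: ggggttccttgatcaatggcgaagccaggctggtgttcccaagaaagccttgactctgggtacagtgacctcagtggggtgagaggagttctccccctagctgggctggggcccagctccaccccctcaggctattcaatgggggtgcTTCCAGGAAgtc
S100a11: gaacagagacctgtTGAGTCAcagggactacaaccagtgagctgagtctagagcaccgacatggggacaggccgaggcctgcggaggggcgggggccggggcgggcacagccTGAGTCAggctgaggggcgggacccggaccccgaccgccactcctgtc
Anxa2: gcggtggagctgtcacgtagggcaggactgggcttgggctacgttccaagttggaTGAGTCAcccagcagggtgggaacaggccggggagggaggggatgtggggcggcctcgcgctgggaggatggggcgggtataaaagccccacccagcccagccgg
S100a6: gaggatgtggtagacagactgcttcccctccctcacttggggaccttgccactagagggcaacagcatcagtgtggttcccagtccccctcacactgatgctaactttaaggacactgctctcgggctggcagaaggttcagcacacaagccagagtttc

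The window of S100a11 held 2 AP-1 matches, which began 136 and 38 bases before the start. That of Anxa2 held 1, which began 95 bases before it. The AP-1 motif occurred in 7.81% of the 32851 promoter windows of the same length. Gfap held 1 STAT match, which began 2 bases before its RefSeq start, and 8.3% of all windows held that motif. The Gfap window lies inside the span given for the gene below, which is from GENCODE and begins further upstream. The windows of Vim, Nes, S100a6, S100b and Cd44 held neither set of letters. A match describes these letters only and does not show that a factor binds there.

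The first role is that of the filaments. Gfap spans 102887336 to 102900912 of chromosome 11 in GRCm38, on the minus strand, in up to 9 exons. Levels are given as CPM, the counts of a gene relative to the library total, scaled by the TMM method over the 12 libraries. In libraries labelled WT, the Gfap level was 25.2, 30.4 and 20.2 CPM in the normoxia replicates and 88.6, 82.1 and 68.0 CPM in OIR. In libraries labelled Casp1 KO it was 22.8, 18.6 and 10.9 CPM in normoxia and 82.0, 90.7 and 86.2 CPM in OIR. The 6 OIR libraries all lay above the 6 normoxia libraries, and the groups of the same condition overlapped. The mean rose from 25.3 ± 5.09 to 79.6 ± 10.6 CPM (SD, n = 3) in the libraries labelled WT, a log2 fold change of 1.63 (SE, the standard error, 0.181). In those labelled Casp1 KO it rose from 17.4 ± 6.05 to 86.3 ± 4.31 CPM, or by 2.29 on the log2 scale (SE 0.184, adjusted p = 1.6e-12, edgeR quasi-likelihood test with Benjamini-Hochberg adjustment over all genes).

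Vim, the vimentin gene, spans 13573927 to 13582826 of chromosome 2, plus strand, in 9 exons. Its level was 105, 115 and 122 CPM in WT normoxia and 243, 229 and 201 CPM in WT OIR. In Casp1 KO normoxia it was 78.8, 103 and 104 CPM, and in Casp1 KO OIR 228, 219 and 259 CPM. Again no OIR library fell into the range of the normoxia libraries. The log2 fold change was 0.98 (SE 0.126) in the libraries labelled WT. It was 1.31 (SE 0.108, edgeR adjusted p = 3.06e-12) in those labelled Casp1 KO, so the level there was 2.48-fold higher in OIR.

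Nes, the nestin gene, spans 87971078 to 87980451 of chromosome 3, plus strand, in 5 exons. It had fewer reads than the other filament genes, from 18 to 131 in a library. Its level was 3.20, 5.83 and 10.002 CPM in WT normoxia and 20.1, 23.4 and 13.1 CPM in WT OIR. The Casp1 KO normoxia replicates gave 4.38, 13.7 and 4.59 CPM and the Casp1 KO OIR replicates 18.01, 7.45 and 10.5 CPM. The groups labelled WT did not overlap, whereas 1 normoxia library labelled Casp1 KO, replicate 2, lay above 2 of the 3 OIR libraries. OIR against normoxia gave a log2 fold change of 1.59 (SE 0.370) in the libraries labelled WT and 0.70 (95% interval −0.10 to 1.51, edgeR adjusted p = 0.326) in those labelled Casp1 KO. The difference between these 2 changes was −0.89 (SE 0.594) and did not pass the test (edgeR adjusted p = 0.582). Both values moved with single libraries. With 1 left out the Casp1 KO change ran from 0.29 without OIR replicate 1 to 1.42 without normoxia replicate 2 (edgeR adjusted p = 0.809 and 0.0519), and the difference from −1.30 to −0.17, without the same 2 libraries.

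**Figure D1:**
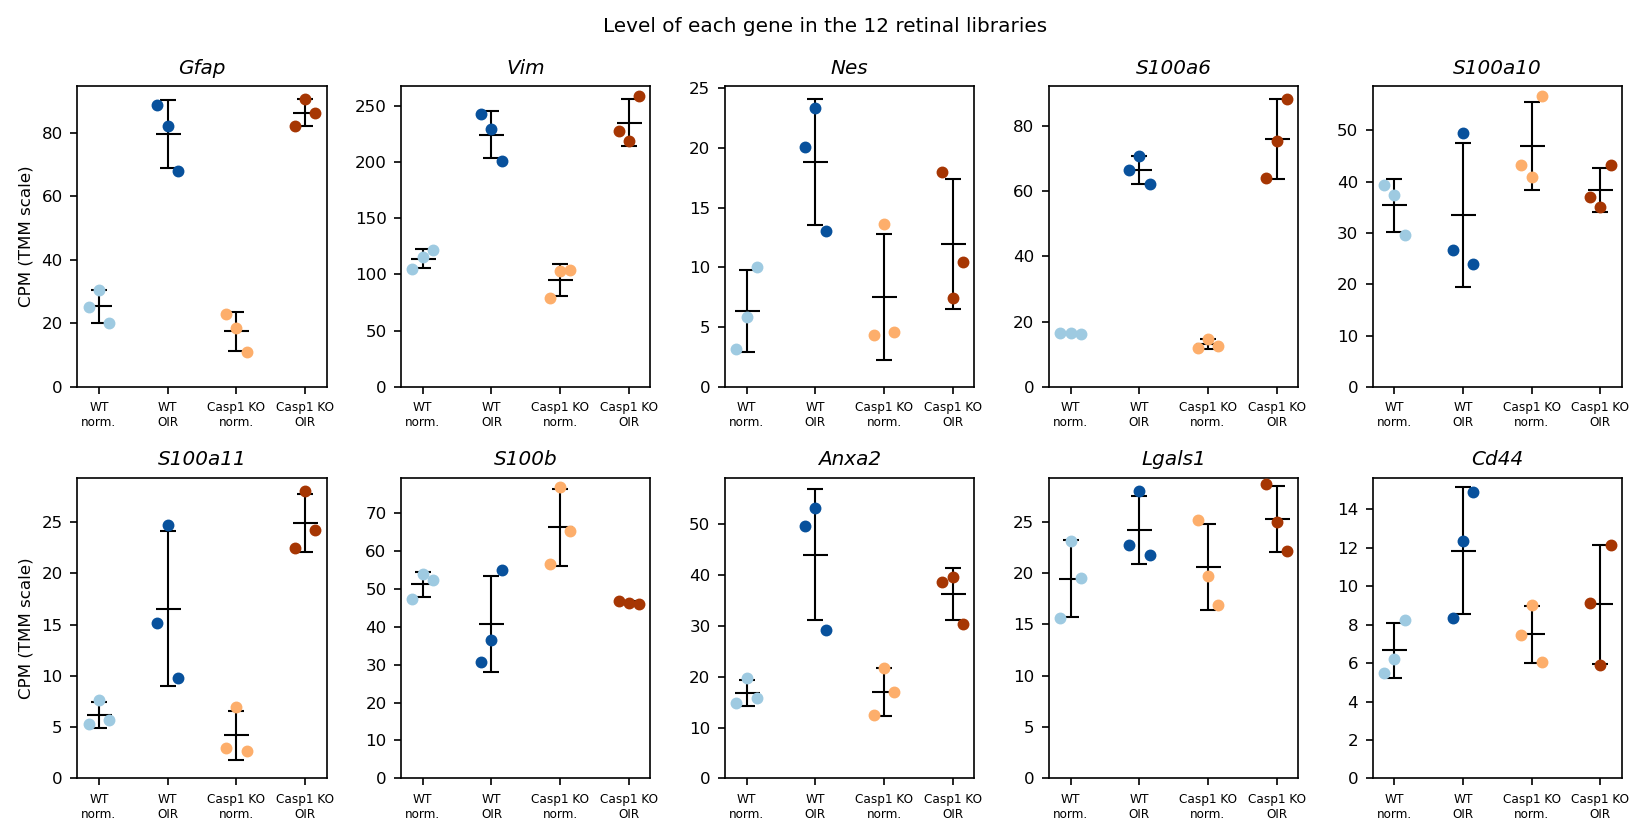
Level of each of the 10 genes in CPM on the TMM scale (vertical axes, each from 0) in the 12 libraries, by group on the horizontal axis. Each point is 1 library, the long bar is the mean of 3 and the whiskers are 1 SD. The OIR points of Gfap, Vim, S100a6, S100a11 and Anxa2 lie above the normoxia points of the same label, and those of S100a10 and Lgals1 overlap.

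The S100 genes followed, of which 3 lie on chromosome 3. S100a6, which encodes calcyclin, spans 90612882 to 90624181 on the plus strand and has 3 exons. Its level was 16.5, 16.5 and 16.3 CPM in WT normoxia and 66.4, 70.9 and 62.3 CPM in WT OIR. In Casp1 KO normoxia it was 12.03, 14.8 and 12.6 CPM, and in Casp1 KO OIR 64.0, 75.6 and 88.4 CPM. The OIR libraries were all more than 3 times as high as any normoxia library. The log2 fold change was 2.02 (SE 0.172) in the libraries labelled WT, a 4.05-fold higher level. It was 2.54 (SE 0.186, edgeR adjusted p = 9.42e-14) in those labelled Casp1 KO, a 5.83-fold higher level. By unadjusted p, S100a6 stood 8th of the 13228 genes tested there, Gfap 11th and Vim 12th. Since the genes were chosen with these results known, the ranks are a description only.

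S100a11, which encodes calgizzarin, spans 93520488 to 93526287 on the plus strand and has 3 exons. Its level was 5.33, 7.65 and 5.65 CPM in WT normoxia and 15.2, 24.7 and 9.81 CPM in WT OIR. The Casp1 KO normoxia replicates gave 2.92, 6.97 and 2.66 CPM and the Casp1 KO OIR replicates 22.5, 28.03 and 24.3 CPM. Both pairs of groups were apart, with WT OIR replicate 3 the lowest of the OIR libraries. OIR against normoxia gave a log2 fold change of 1.38 (SE 0.355) in the libraries labelled WT, and of 0.98 to 1.65 when 1 library was left out, the lower value without WT OIR replicate 2. In the libraries labelled Casp1 KO it was 2.62 (SE 0.329, edgeR adjusted p = 1.53e-07), a 6.16-fold higher level.

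S100a10, the light chain of the annexin A2 complex, starts 28792 bases after the end of S100a11 on the same strand and spans 93555080 to 93564643. Its level was 39.3, 37.4 and 29.6 CPM in WT normoxia and 26.7, 49.5 and 23.99 CPM in WT OIR. In Casp1 KO normoxia it was 43.2, 40.96 and 56.8 CPM, and in Casp1 KO OIR 36.9, 35.0 and 43.2 CPM. The groups overlapped in both labels. The log2 fold change was −0.08 (SE 0.241) in the libraries labelled WT and −0.29 (95% interval −0.64 to 0.06, edgeR adjusted p = 0.354) in those labelled Casp1 KO. That interval lies below the log2 fold change of 2.62 of its neighbour S100a11 and that of 1.11 of its partner Anxa2 in the same libraries.

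S100b spans 76253853 to 76261159 of chromosome 10, plus strand. Its level was 47.4, 53.8 and 52.4 CPM in WT normoxia and 30.6, 36.5 and 54.9 CPM in WT OIR. The Casp1 KO normoxia replicates gave 56.5, 77.0 and 65.2 CPM and the Casp1 KO OIR replicates 46.9, 46.2 and 46.1 CPM. All 3 Casp1 KO OIR libraries were below the normoxia libraries of that label, whereas WT OIR replicate 3 lay above the WT normoxia libraries. OIR against normoxia gave a log2 fold change of −0.33 (SE 0.198) in the libraries labelled WT. Without WT OIR replicate 3 it was −0.61 and S100b passed the threshold as lower. In those labelled Casp1 KO, S100b fell by 0.51 on the log2 scale (SE 0.152, edgeR adjusted p = 0.0288). This call was lost in 5 of the 6 fits that left out 1 Casp1 KO library, with edgeR adjusted p from 0.0715 to 0.209, the largest without normoxia replicate 2, and remained only without normoxia replicate 1. The gene Dip2a overlaps S100b on the other strand, and whether counting used the strand is not given in the sources used here.

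Anxa2, which encodes a calcium-dependent membrane-binding protein, spans 69453620 to 69491795 of chromosome 9, plus strand, in 13 exons. Its level was 14.9, 19.7 and 15.9 CPM in WT normoxia and 49.7, 53.2 and 29.3 CPM in WT OIR. In Casp1 KO normoxia it was 12.4, 21.8 and 16.9 CPM, and in Casp1 KO OIR 38.7, 39.6 and 30.4 CPM. Every OIR library was above every normoxia library. The log2 fold change was 1.37 (SE 0.234) in the libraries labelled WT and 1.11 (SE 0.222, edgeR adjusted p = 0.000576) in those labelled Casp1 KO. Annotated genes overlap Gfap (Gm26668, other strand), Anxa2 (Mir3109, same strand, and Gm16144, other strand) and Cd44 (Gm23731, other strand), so part of their reads could belong to these.

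Lgals1, on chromosome 15 from 78926725 to 78930465, had levels of 15.6, 23.1 and 19.6 CPM in WT normoxia and 22.8, 27.98 and 21.8 CPM in WT OIR. In Casp1 KO normoxia they were 25.2, 19.8 and 16.9 CPM, and in Casp1 KO OIR 28.7, 25.0 and 22.2 CPM. The ranges overlapped in both labels. OIR against normoxia gave a log2 fold change of 0.30 (SE 0.230) in the libraries labelled WT and 0.29 (95% interval −0.17 to 0.74, edgeR adjusted p = 0.512) in those labelled Casp1 KO.

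Cd44, on chromosome 2 from 102811141 to 102901665 on the minus strand, had levels of 5.51, 6.23 and 8.26 CPM in WT normoxia and 8.33, 12.3 and 14.9 CPM in WT OIR. In Casp1 KO normoxia they were 7.48, 9.01 and 6.04 CPM, and in Casp1 KO OIR 9.12, 5.91 and 12.1 CPM. In WT the lowest OIR library and the highest normoxia library were all but equal, and in Casp1 KO the groups overlapped. The log2 fold change was 0.85 (SE 0.352) in the libraries labelled WT and 0.28 (95% interval −0.49 to 1.05, edgeR adjusted p = 0.745) in those labelled Casp1 KO.

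**Figure D2:**
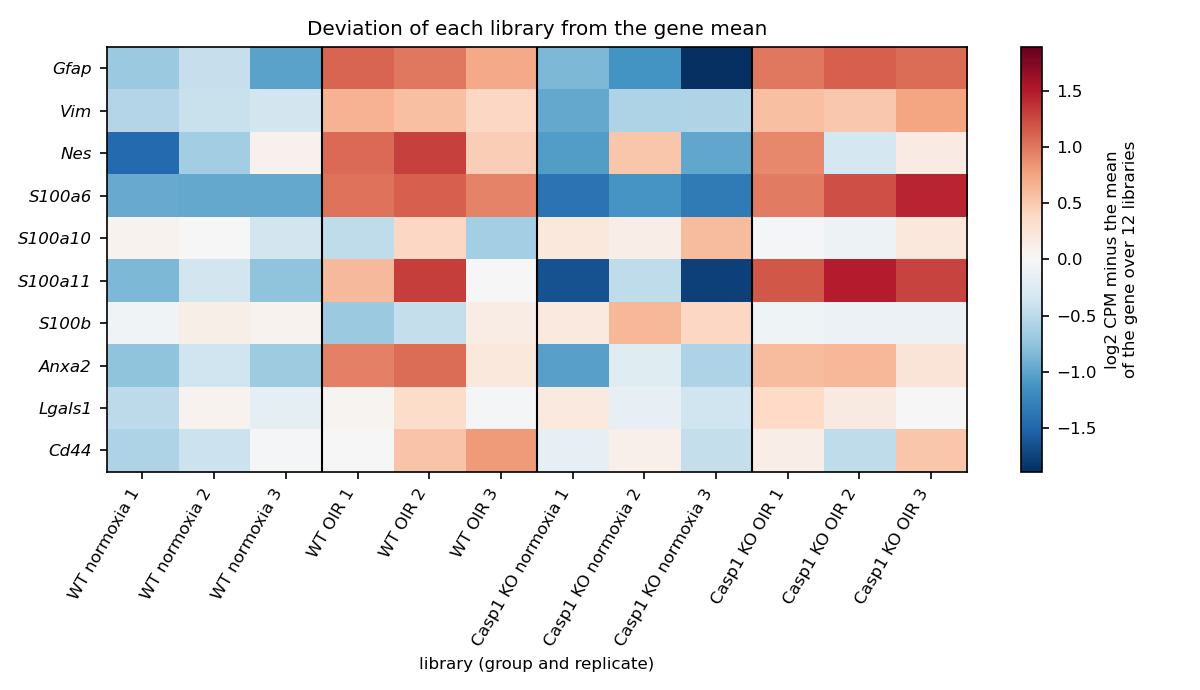
Deviation of each library (columns, by group and replicate) from the mean of each gene (rows) over the 12 libraries, in log2 CPM by colour, red above and blue below the mean. Gfap, Vim, S100a6, S100a11 and Anxa2 change from blue in normoxia to red or near white in OIR under both labels. S100b runs the other way except in WT normoxia replicate 1, just below the mean, and WT OIR replicate 3.

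All 10 genes passed the filter on low counts in each comparison. In the libraries labelled WT, 6 of the 10 had an adjusted p under 0.05 and were higher in OIR, where 1.56% of the 13696 genes tested were. None of the 10 was lower, where 2.72% of all genes were. In the same comparison 7 of the 10 were higher without overlap between the groups, against 11.1% of all genes, and none was lower without overlap, against 12.1%. Since the genes were selected on this comparison, these counts describe the choice and nothing is read from them. The number of the 10 called ran from 4 to 7 when 1 library was left out. It was 7 without WT OIR replicate 3, the library that stood apart, where S100b was the gene added, as lower in OIR, and 4 without WT normoxia replicate 1, WT normoxia replicate 2, the deepest library, or WT OIR replicate 2. Nes and S100a11 were the genes whose calls were lost. The median log2 fold change was 1.17 over the 10 genes and 0.01 over all genes tested.

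In the libraries labelled Casp1 KO, which do not enter the comparison above but whose results were also known when the genes were chosen, 5 of the 10 rose: Gfap, Vim, S100a6, S100a11 and Anxa2. Of the 13228 genes tested there, 4.17% rose. S100b was the only one of the 10 that fell, where 3.76% of all genes did. The same 5 genes were higher without overlap, against 12.6% of all genes, and S100b was the only one lower without overlap, against 12.2%. The other 4, Nes, S100a10, Lgals1 and Cd44, did not pass the test and overlapped. These counts too describe genes chosen with the results known. The median log2 fold change was 0.91 over the 10 genes and 0.00095 over all genes tested.

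**Figure D3:**
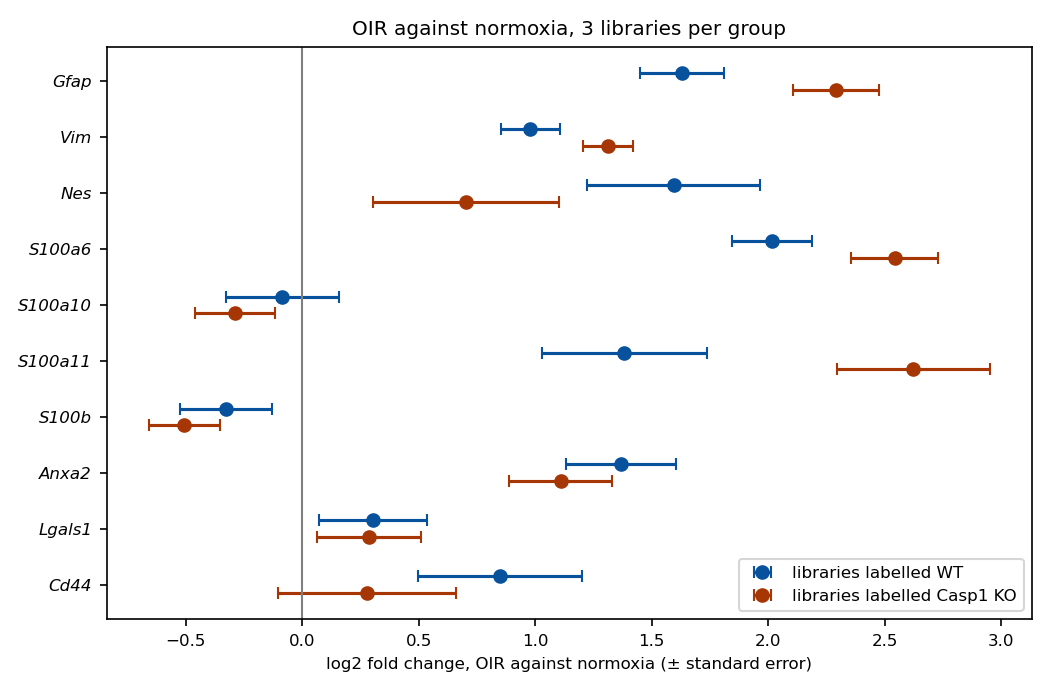
Log2 fold change of OIR against normoxia for each of the 10 genes (horizontal axis), as points with 1 standard error, in blue for the libraries labelled WT and in red-brown for those labelled Casp1 KO, 3 libraries per group. S100a6 lies at 2.02 and 2.54 and Gfap at 1.63 and 2.29, while S100a10, S100b, Lgals1 and the Casp1 KO value of Cd44 lie between −0.51 and 0.30.

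The genotype labels were then compared within each condition. These comparisons share libraries with those above. In normoxia none of the 10 genes passed the edgeR test, where 1.31% of the 13387 genes tested did, and 4 had an unadjusted p under 0.05. These were Gfap with a log2 fold change, Casp1 KO against WT, of −0.53 (SE 0.242, edgeR adjusted p = 0.365), Vim with −0.25 (adjusted p = 0.403), S100a10 with 0.41 (adjusted p = 0.3) and S100b with 0.38 (adjusted p = 0.262). S100a10 and S100b were higher in all 3 Casp1 KO normoxia libraries than in the WT normoxia libraries, where 7.6% of all genes were, and Vim and S100a6 were lower in all 3, where 9.32% were. DESeq2 called none of the 10 either. The share of all genes with an unadjusted p under 0.05 is not given here, so nothing is read from the count of 4.

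In OIR none of the 10 genes passed the edgeR test between the labels, where 0.119% of the 13435 genes tested did, and none had an unadjusted p under 0.05. DESeq2 also called none of them. The log2 fold changes of Gfap and Vim between the labels were 0.12 (95% interval −0.18 to 0.43) and 0.07 (95% interval −0.19 to 0.33). That of S100a6 was 0.20 (95% interval −0.13 to 0.52). Wider intervals were left for S100a11, at 0.59 (95% interval −0.02 to 1.20), and Nes, at −0.65 (95% interval −1.34 to 0.05).

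The difference between the 2 OIR effects was tested as an interaction over all 12 libraries. None of the 10 genes passed the edgeR test, where 0.973% of the 14287 genes tested did, and DESeq2 called none. An unadjusted p under 0.05 was found for 3 of them, each with a larger change in the libraries labelled Casp1 KO. These were S100a11 with a difference of 1.24 on the log2 scale (SE 0.499, edgeR adjusted p = 0.283), Gfap with 0.67 (SE 0.273, adjusted p = 0.294) and S100a6 with 0.52 (SE 0.246, adjusted p = 0.381). A difference between the labels was thus not shown for any of the 10, and its 95% interval for S100a11, from 0.22 to 2.26, leaves its size poorly fixed. The count of 3 at an unadjusted p under 0.05 stands without the share of all genes at that cutoff. Nothing is read from it.

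The order of the 4 group means was the same for Gfap, Vim, S100a6 and S100a11. It ran from Casp1 KO normoxia through WT normoxia and WT OIR to Casp1 KO OIR. Between WT normoxia and WT OIR the libraries of these 4 genes did not overlap, whereas WT OIR and Casp1 KO OIR overlapped for each of them. For Anxa2 the order ended with WT OIR, at 44.1 ± 12.9 CPM (SD, n = 3) beside 36.3 ± 5.06 CPM in Casp1 KO OIR, and those 2 groups overlapped. For S100b it ran from WT OIR at 40.6 ± 12.7 CPM through Casp1 KO OIR and WT normoxia to Casp1 KO normoxia at 66.2 ± 10.3 CPM. For Nes, S100a10, Lgals1 and Cd44 every pair of neighbours in the order overlapped.

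Across the 12 libraries the 6 genes called in the libraries labelled WT, Gfap, Vim, Nes, S100a6, S100a11 and Anxa2, had a Pearson r of log2 CPM from 0.63 to 0.98 over their 15 pairs (median 0.90). Since these 6 all separated OIR from normoxia there, high values were built in. For the deviations from the 4 group means r ran from −0.39 to 0.81 with a median of 0.43. Over the 45 pairs of all 10 genes r ran from −0.73 to 0.98 (median 0.55), and for the deviations its median was 0.15. Vim and S100a6 gave the highest value, 0.98. For the partners S100a10 and Anxa2 it was −0.22 over the 12 libraries and 0.32 within groups. These values describe 12 libraries that fall into the same 4 groups and differ in depth, and no test was made of them.

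Among 11038 genes with at least 10 reads in every library, those whose pattern was most like that of Gfap were S100a6 (r = 0.96), Mt1 (0.95), Cyb5r1 (0.95), Gng11 (0.94) and Arpc1b (0.94). Mt1 encodes a metallothionein, and Arpc1b a subunit of the complex that branches actin filaments. Those most like S100a6 were Crym (r = 0.99), Vim (0.98), Cebpd (0.97), C1qc (0.97) and Gfap (0.96). Crym encodes a thyroid hormone-binding protein of Muller glia, Cebpd a transcription factor of the acute-phase response, and C1qc a complement subunit made by microglia.

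Of 13 other S100 genes, 10 had a read and 4 had enough reads to be tested. In the libraries labelled WT edgeR called none of the 4, where 1.56% of all genes rose and 2.72% fell. In those labelled Casp1 KO 1 of the 4 rose, where 4.17% of all genes rose and 3.76% fell. S100a16, which lies 69730 bases before S100a6, rose in the libraries labelled Casp1 KO from 27.0 ± 2.63 to 50.5 ± 7.97 CPM (SD, n = 3), a log2 fold change of 0.91 (edgeR adjusted p = 0.000522). In those labelled WT its log2 fold change was 0.09 (adjusted p = 0.893), and the difference between the labels did not pass the test (adjusted p = 0.187). S100a13 was higher in all 3 OIR libraries under both labels, with log2 fold changes of 1.24 and 1.03, but did not pass the test (edgeR adjusted p = 0.206 and 0.178). S100a1 gave −0.04 and 0.09 on the same scale, and S100a4, with at most 105 reads in a library, 0.15 and −0.56. DESeq2 called none of the 4 in the libraries labelled WT and 1 in those labelled Casp1 KO.

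The remaining S100 genes were near the limit of detection. S100a3 had at most 12 reads in a library, S100z at most 10, S100a9 at most 8, and S100a8 and S100g at most 4 each. S100a9 and S100a8, the subunits of the calprotectin of neutrophils, were at 0 reads in 8 and 10 of the 12 libraries. A count of 0 allows up to 3 reads, which was 0.134 CPM at the greatest depth and 0.871 CPM at the lowest, for counting error only.

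Relatives of the other genes were few, so their counts of calls are a description only. Over all genes 1.56% rose and 2.72% fell by edgeR in the libraries labelled WT. In those labelled Casp1 KO 4.17% rose and 3.76% fell. The counts at an unadjusted p under 0.05 below stand without the share of all genes at that cutoff. Of 11 other annexins, 6 were tested under each label and none passed, with Anxa1 at 0.10 and 1.003 (adjusted p = 0.943 and 0.239), Anxa6 at −0.05 and −0.28, Anxa7 at 0.41 and 0.29 and Anxa3 at 0.62 and −0.02. An unadjusted p under 0.05 was found for 0 of them in the libraries labelled WT and 2 in those labelled Casp1 KO, and DESeq2 called none of them in either. Of 7 other galectins none passed either, with 4 tested in WT and 3 in Casp1 KO and 1 at an unadjusted p under 0.05 in each, although DESeq2 called 1 in WT. Lgals3, which encodes galectin-3 of macrophages and reactive glia, had log2 fold changes of 1.83 (adjusted p = 0.1) and 1.82 (adjusted p = 0.166) from 0 to 116 reads in a library.

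Over all genes tested, 1.56% rose and 2.72% fell by edgeR in the libraries labelled WT. Of 13 other intermediate filament genes, 11 were tested there, where none rose and 1 fell, by edgeR and by DESeq2. This was Ina, which encodes the neuronal filament protein alpha-internexin, with a log2 fold change of −0.53 (SE 0.117, edgeR adjusted p = 0.0141). In the libraries labelled Casp1 KO it changed by −0.45 (SE 0.0859, adjusted p = 0.00036). There 3 of 10 rose, against 4.17% of all genes, namely Bfsp2 by 1.53, Krt18 by 0.75 and Lmnb1 by 0.44 on the log2 scale. Bfsp2 encodes a filament protein of the lens, Krt18 an epithelial keratin and Lmnb1 a nuclear lamin.

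A list of 26 other genes of reactive glia was set beside the 10. Over all genes 1.56% rose and 2.72% fell in the libraries labelled WT. Of the 13 reactive glia genes tested, 5 rose and none fell there, with a median log2 fold change of 0.92 against 0.01 over all genes. They were Cebpd with 2.27, Serpina3n, a protease inhibitor, with 2.54, Lcn2, which encodes lipocalin-2, with 2.76, the iron oxidase gene Cp with 0.92 and Stat3 with 0.89. In the libraries labelled Casp1 KO 6 of 13 rose and none fell, against 4.17% and 3.76% of all genes, with a median of 0.75. Among these Cebpd stood at 2.26 (edgeR adjusted p = 2.1e-08), Serpina3n at 2.77 (adjusted p = 0.000764), Stat3 at 0.91 (adjusted p = 6.31e-07) and Cp at 0.75 (adjusted p = 4.68e-05). Lcn2, at 0.75, did not pass there (adjusted p = 0.354), and its difference between the labels did not pass either (adjusted p = 0.181).

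Part of the homeostatic genes of Muller glia moved differently under the 2 labels. Of the 17 tested of 18, 1 rose and 3 fell in the libraries labelled WT, where 1.56% and 2.72% of all genes did. In those labelled Casp1 KO 10 rose and 1 fell, where 4.17% and 3.76% of all genes did. Glul, which encodes glutamine synthetase, changed by −0.69 (SE 0.105, edgeR adjusted p = 0.000976) in the first and by 0.40 (SE 0.0685, adjusted p = 7.13e-05) in the second. The difference between the labels passed the test for 6 of these genes, against 0.973% of all genes, each with the higher change in Casp1 KO. Among them were Glul at 1.08 (edgeR adjusted p = 3.06e-05), Clu at 0.87 (adjusted p = 0.000811) and Apoe at 0.78 (adjusted p = 0.00225). The other 11 did not pass, and the differences of the 17 ran from −0.37 to 1.08. Some genes were higher in OIR under both labels. Crym rose by 0.67 in WT (edgeR adjusted p = 0.00637) and from 75.8 to 132.5 CPM in Casp1 KO. Sox9 stood at 0.42 (edgeR adjusted p = 0.111) and 1.06 (adjusted p = 5.33e-08). Already in normoxia 6 of the 17 were called lower in Casp1 KO than in WT, where 1.31% of all genes were called in either direction. The OIR changes of those genes thus started from different levels. In OIR 1 of the 17 was called, as higher in Casp1 KO, where 0.119% of all genes were called. The summed level of the 18 genes was 4115 to 4294 CPM in WT normoxia, 3582 to 3703 CPM in WT OIR, 3243 to 3339 CPM in Casp1 KO normoxia and 4433 to 4713 CPM in Casp1 KO OIR. That of the 10 genes was 278 to 316 CPM in WT normoxia and 499 to 610 CPM in WT OIR, and 266 to 325 CPM and 572 to 622 CPM in the Casp1 KO groups. The part of the Muller glia level in the results on the 10 genes was not tested.

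**Figure D4:**
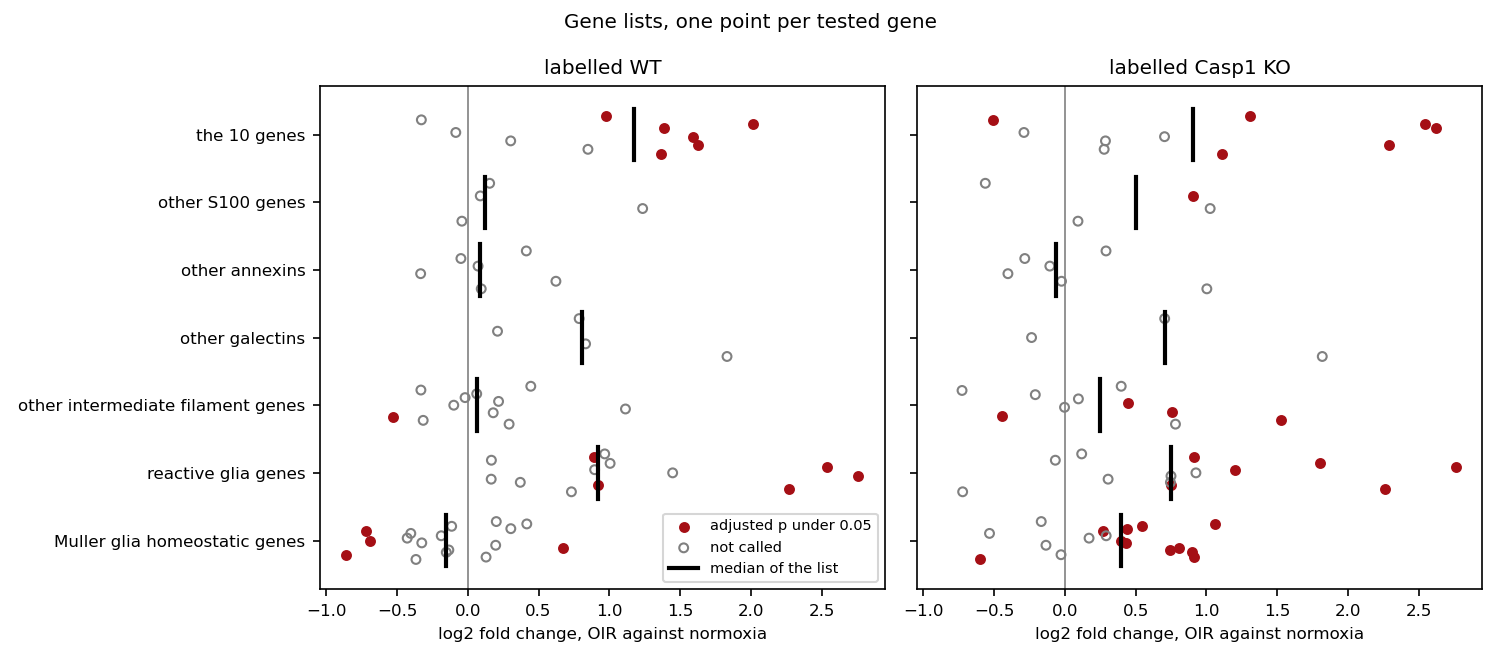
Log2 fold change of OIR against normoxia (horizontal axis) for every tested gene of 7 lists (rows), in the libraries labelled WT (left) and Casp1 KO (right). Filled points passed the edgeR test at an adjusted p under 0.05, open points did not, and the black bar is the median of the list. The median of the 10 genes is 1.17 and 0.91, that of the reactive glia genes 0.92 and 0.75, and that of the Muller glia homeostatic genes −0.15 and 0.40.

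Vim, Nes, S100a6, S100a11, Anxa2, Lgals1 and Cd44 are also made by vascular, immune or connective tissue cells, so markers of those cells are given beside them. The summed level of 12 microglia and macrophage markers was 65.2 to 77.3 CPM in WT normoxia and 111 to 120 CPM in WT OIR, and 56.7 to 72.7 CPM and 107 to 127 CPM in the Casp1 KO groups. Of these, 2 of 10 tested rose in WT and 3 of 7 in Casp1 KO, against 1.56% and 4.17% of all genes. C1qa rose by 1.09 (edgeR adjusted p = 0.0263) and 1.64 (adjusted p = 6.67e-05) on the log2 scale in the 2 labels. Not all of the list went up. The log2 fold changes of the tested markers ran from −0.91 to 1.95 (median 1.05) in WT. In Casp1 KO they ran from −0.89 to 1.64 (median 0.65). For 10 endothelial markers the sums were 107 to 129 CPM and 127 to 210 CPM in WT, and 132 to 144 CPM and 138 to 167 CPM in Casp1 KO, with no gene past the edgeR test in either. An unadjusted p under 0.05 was found for 4 of the 7 tested in WT and 0 of the 6 in Casp1 KO, and DESeq2 called none. The share of all genes at that unadjusted cutoff is not given here, so nothing is read from these 2 counts. For 9 pericyte and smooth muscle markers the sums were 107 to 139 CPM and 110 to 214 CPM in WT. In Casp1 KO they were 136 to 155 CPM and 130 to 158 CPM. Of 8 tested genes 1 and 2 were called higher, against 1.56% and 4.17% of all genes. Rgs5 made up most of the sums, with means of 97.2 and 112 CPM in WT and 121 and 95.3 CPM in Casp1 KO. Acta2 rose by 3.43 on the log2 scale in WT (edgeR adjusted p = 0.000444) and from 3.88 to 14.6 CPM in Casp1 KO. The 8 log2 fold changes ran from −0.74 to 3.43 in WT and from −0.91 to 1.91 in Casp1 KO. Tagln of that list had no read in any library, and Lyz2 of the microglia list none in Casp1 KO normoxia. Of 6 proliferation markers 3 were tested, and their sum over all 6 was 4.09 to 9.97 CPM in WT normoxia and 14.2 to 48.2 CPM in WT OIR, and 9.12 to 13.4 CPM and 16 to 28.5 CPM in the Casp1 KO groups. Top2a rose by 3.27 (edgeR adjusted p = 0.0054) and 1.73 (adjusted p = 0.0247) on the log2 scale, and Mki67 by 2.45 in WT (adjusted p = 0.0325), with 1.20 in Casp1 KO (adjusted p = 0.405). Ccna2, also tested, passed under neither label and its values went in opposite directions. Its mean was 2.32 CPM in WT normoxia and 6.51 CPM in WT OIR (edgeR adjusted p = 0.19). In Casp1 KO its log2 fold change was −0.79 (edgeR adjusted p = 0.463), with means of 5.41 CPM in normoxia and 3.07 CPM in OIR. Ccnb1 had no read in WT normoxia. The part of these cells and of cell division in the rise of the 5 genes was not tested.

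Markers of neighbouring tissue moved mainly with the Casp1 KO OIR group. In Casp1 KO 4 of 5 tested lens markers were called higher in OIR, against 4.17% of all genes. The sum of 7 lens markers was 266 to 287 CPM in Casp1 KO normoxia and 474 to 512 CPM in Casp1 KO OIR. It was 272 to 330 CPM in WT normoxia and 170 to 383 CPM in WT OIR, where none of 5 was called by edgeR or DESeq2 and none had an unadjusted p under 0.05. Mip had no read in either WT group, nor had Birc7 in WT OIR. The sum of 6 retinal pigment epithelium markers was 160 to 192 CPM and 293 to 318 CPM in the Casp1 KO groups, and 155 to 183 CPM and 163 to 254 CPM in the WT groups. That of 6 fibroblast markers was 63.6 to 73.2 CPM and 79.4 to 88.8 CPM in Casp1 KO, and 59.6 to 72.1 CPM and 28.9 to 75.4 CPM in WT. Their part in the results labelled Casp1 KO was not tested.

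Retinal astrocytes carry Gfap at rest. Of their 8 markers, 1 rose and 1 fell among the 6 tested in the libraries labelled WT, against 1.56% and 2.72% of all genes. Gja1, which encodes connexin 43, rose by 1.33 (edgeR adjusted p = 0.00124) and 1.15 (adjusted p = 8.83e-06) on the log2 scale in the 2 labels. It was the only one of 7 tested to pass in Casp1 KO, where 4.17% of all genes rose and 3.76% fell. The marker that fell in WT was Aldoc, with a log2 fold change of −0.49 (edgeR adjusted p = 0.0263). Those of the tested markers ran from −0.49 to 1.33 (median 0.28) in WT and from −0.095 to 1.15 (median 0.26) in Casp1 KO. Pax2, the most astrocyte-specific of the list, had 3 to 25 reads in a library. Gjb6 of the same list had no read in WT OIR or Casp1 KO normoxia. As a check of the tissue, 8 rod photoreceptor markers summed to 37679 to 45144 CPM over the 4 groups, and none of them was at 0.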

How the data were processed

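The authors prepared Lexogen QuantSeq 3′ FWD libraries from retinal RNA, sequenced 75-base single reads, aligned them to mm10 with STAR and tabulated them with HTSeq. The submitters' processing notes name STAR 2.7.5a and HTSeq 0.6.1. The deposited values are raw whole-number counts, 1 row for each gene symbol, with no scaling applied. The gene annotation, strand setting and handling of reads with several matches are not given in the sources used here. Groups came from the labels.

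The 10 genes and all gene lists were chosen with earlier results of these data known. The fits were made with edgeR 4.0.16 under R 4.3.3 (TMM scaling, genes kept by filterByExpr with its minimum of 10 counts, glmQLFit and glmQLFTest, Benjamini-Hochberg adjustment over all genes tested, threshold 0.05). Each comparison of 2 groups used its own 6 libraries and the interaction all 12. Fold changes are OIR against normoxia or Casp1 KO against WT. Levels are CPM on the TMM scale of the 12 libraries, and r was computed on log2 CPM with a prior count of 2. Positions are from GENCODE vM21 on GRCm38, and promoter sequences from RefSeq on GRCm38.p6.

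All 10 genes are named. From each other list the text names up to 4 genes with the smallest p in either OIR comparison, and every other S100 gene with over 3 counts in a library. Lcn2, Glul, Dip2a, Pax2, Gjb6, Tagln, Lyz2, Ccnb1, Mip and Birc7 are named outside that rule, after their values or positions were seen. For Gfap and S100a6 the 5 genes with the highest r are named. Alternatives were DESeq2's size factors or library size alone in place of TMM, a filter of at least 1 count in all or of 10 in every library, DESeq2 1.42.0, edgeR's likelihood ratio test, a replicate block, a joint fit of the 12 libraries, and each library left out in turn.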

Additional observations from a re-analysis of the deposited data

How the results depend on the processing

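The number of the 10 genes called stayed between 4 and 7 in the libraries labelled WT and between 5 and 6 in those labelled Casp1 KO, and at 0 in the other 3 comparisons, under every alternative run. In WT the calls of Nes and S100a11 were lost when 1 library was left out, and that of S100b was gained without WT OIR replicate 3. The call of S100b in Casp1 KO was lost in fits without 1 library, as given above. It was also lost with all 12 libraries in one fit (edgeR adjusted p = 0.12). Leaving out 1 library turned the sign of values that had not passed a test. The lowest and highest log2 values were then −0.48 and 0.11 for S100a10 in WT, −0.48 and 0.68 for Nes, −0.22 and 0.20 for Anxa2 and −0.086 and 0.25 for Lgals1 between the labels in normoxia, −0.032 and 0.18 for Lgals1 between the labels in OIR, and −0.18 and 0.16 for Lgals1, −0.40 and 0.21 for S100a10 and −0.34 and 0.10 for S100b in the interaction. Anxa2 between the labels in normoxia was also −0.0084 with genes of at least 1 count and −0.0087 with all 12 libraries in one fit. The cause was not tested.

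Counts over all genes moved more. In WT 586 genes were called, 545 to 992 in other fits and 231 to 1031 with 1 library left out, the highest without WT OIR replicate 3. In Casp1 KO these were 1050, 492 to 1127 and 677 to 812. Between the labels they were 175, 56 to 239 and 99 to 165 in normoxia, and 16, 15 to 131 and 0 to 719 in OIR, and for the interaction 139, 118 to 284 and 59 to 523, the highest of the last 2 again without WT OIR replicate 3. Libraries with the same replicate number did not deviate together (r from −0.028 to 0.035 over 12 pairs), so the numbers were not taken as pairs. With the replicate block 6 of the 10 genes were called in WT and 6 in Casp1 KO and 0 in the other comparisons, among 545, 1016, 114, 20 and 136 genes. With 3 libraries a group, changes within the intervals given for S100a10, Lgals1, Cd44 and Nes could not be resolved.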
